A study of Homo sapiens with 12 samples.

Results

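The genes described here are 10 stress-induced genes linked to growth arrest or secreted under stress, measured in the human leukaemia cell line SHI-1 after 16 h with disulfiram and niclosamide. They are GDF15, CDKN1A, MDM2, GADD45A, GADD45B, DDIT4, BTG1, BTG2, TP53INP1 and VEGFA, 10 of the 14866 genes with a value, and each was found by its symbol. They were chosen by their measured levels over the treatment groups of these same libraries. Their levels and differences are therefore given as a description, with a standard error and no p-value. How many of them the fit over all genes called is given once, beside the share of all genes called, and nothing is read from it.

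SHI-1 is an acute myeloid leukaemia line that carries the MLL-AF6 fusion (MLL is also named KMT2A). Cells received the solvent DMSO, disulfiram at 0.3 µM together with copper at 1 µM (DSF), niclosamide at 5 µM (NSM), or both drugs (DSF+NSM). Each group held 3 libraries, which the paper's methods place in independent experiments. Whether the DMSO and NSM cultures received copper is not stated in the sources used here, so a part of copper alone in DSF and DSF+NSM cannot be told apart from that of disulfiram. All cells came from 1 line, so the spread is that between experiments on the same line. Values are the authors' normalized counts per gene, in which differences of sequencing depth between libraries have been scaled out.

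Growth-arrest genes are the part of the stress response that slows the cell cycle while damage is dealt with. Several are raised by ATF4 and its partner CHOP in the integrated stress response, a pathway in which phosphorylation of eIF2α lowers general translation and lets ATF4 through. GDF15, DDIT4 and VEGFA respond to ATF4, and DDIT4 and VEGFA also respond to hypoxia.

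The libraries differed in ways that touch several values below. Sums of normalized counts were 13963864 to 17516910 in the DMSO, DSF and NSM libraries and 22657898 to 25584448 in DSF+NSM, and the share of ribosomal RNA genes was 1.88% to 3.58% in DMSO and 9.63% to 11.7% in DSF+NSM. Spearman correlations between libraries of a group were 0.981 to 0.996, except that NSM replicate 3 reached 0.952 and 0.959 with the other 2 NSM libraries. With all library sums set equal, the median log2 difference of all tested genes against DMSO was -0.75 in DSF+NSM, -0.25 in NSM and -0.05 in DSF, and results that turn on this scaling are named as such. All 10 myeloid markers had a value. Their summed level was 64843 to 73717 in DMSO, 43118 to 49850 in DSF, 25861 to 34622 in NSM and 31876 to 33818 in DSF+NSM, and it was carried by MPO, at means of 58058, 31892, 16981 and 21249. Other myeloid markers went both ways. CD14 (336 against 59.6), CD68 (1292 against 591), ITGAM (843 against 549.7), SPI1 (5224 against 4560) and FCGR1A (807 against 696) had higher means in DSF+NSM than in DMSO. LYZ (463 against 765), CSF1R (47.2 against 78.6), CEBPA (1702 against 2746) and CD33 (820 against 834) had lower ones. The B cell marker MS4A1 was listed at 0 in all 4 groups, and the T cell marker CD3D was at a mean of 10.4 or lower in each. Other lymphoid markers were higher. CD3E had means of 71.9, 84.5, 148 and 164 in DMSO, DSF, NSM and DSF+NSM, and CD79A 24.6, 28.0, 27.1 and 46.5. A smaller share of cells of a kind and less RNA per cell cannot be told apart in bulk RNA.

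The secreted factor GDF15 went from about 1 read per library in DMSO to between 424 and 477 normalized counts in DSF+NSM. The gene lies on chromosome 19 from 18374731 to 18389176 (GRCh38, GENCODE 44, plus strand). GDF15 is a distant member of the TGF-β family that leaves the cell and acts in the brainstem on the receptor GFRAL with its partner RET to reduce food intake. It was listed at 0.884, 0.756 and 0.98 in the DMSO libraries, which is exactly 1 step of each library's scale and so close to 1 read each. The DSF libraries held 105, 125 and 98.1, the NSM libraries 119.8, 112 and 71.6, and the DSF+NSM libraries 424, 477 and 453. The single-drug groups overlapped with each other, and every DSF+NSM library lay above every single-drug library.

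Since the DMSO level rests on 3 reads in all, the ratios over DMSO are wide. For GDF15 the ratio was 128 for DSF (95% exact counting interval 43.3 to 622), 120.2 for NSM (40.7 to 586) and 524 for DSF+NSM (179 to 2546), and these intervals cover counting error only. On the log2(normalized count + 1) scale used for all differences, GDF15 was 5.88 ± 0.23 higher in DSF (SE, 3 libraries per group here and throughout), 5.74 ± 0.23 higher in NSM and 7.92 ± 0.23 higher in DSF+NSM than in DMSO. The last value depends on the constant added, at 8.86 with 0.1 and 5.41 with 10. The comparison of DSF+NSM with each drug does not rest on the DMSO reads, and the mean there was 4.12 times that of DSF and 4.46 times that of NSM. It does depend on the scaling. The log2 differences were 2.04 from DSF and 2.18 from NSM, or 1.35 and 1.67 at equal library sums.

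RefSeq promoter windows (GRCh38.p14, the 250 bases before the annotated start) were found for 7 of the 10 genes, with 10 starts. Of these, 4 are printed beside the values, in the direction of transcription: GDF15 and CDKN1A, GADD45B as the gene furthest above the sum of both drugs, and DDIT4 as a gene with its highest mean in NSM alone. Capitals mark matches to the core of the hypoxia response element, ACGTG or GCGTG on either strand. That core is common, present in 43.2% of 35116 promoter windows of this length. Also searched on both strands were TGATGNAA of C/EBP-ATF dimers (3.14% of windows), the cyclic AMP element TGACGTCA (1.65%), the antioxidant element TGACNNNGC (10.9%) and the heat shock core GAANNTTC (5.78%). Of these 4, the antioxidant element was matched at 2 of the 4 MDM2 starts and the others at none of the 7 genes. The window of GDF15 at chr19:18385908-18386157, plus strand, held no match to any of them.
GDF15: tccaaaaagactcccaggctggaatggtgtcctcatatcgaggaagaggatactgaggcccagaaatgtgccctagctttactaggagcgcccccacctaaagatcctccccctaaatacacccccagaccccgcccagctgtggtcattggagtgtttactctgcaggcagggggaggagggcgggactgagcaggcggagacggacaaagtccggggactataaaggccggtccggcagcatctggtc

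CDKN1A, which encodes the cyclin-dependent kinase inhibitor p21, showed the same order of groups with less spread in DMSO. The gene lies on chromosome 6 from 36676460 to 36687337, plus strand. Its normalized counts were 154, 136 and 152 in DMSO and 359, 364 and 227 in NSM. They were 663, 654 and 419.8 in DSF and 1495, 1549 and 1192 in DSF+NSM. No neighbouring groups in the order DMSO, NSM, DSF, DSF+NSM overlapped. Against DMSO the log2 difference was 1.07 ± 0.22 for NSM, 1.94 ± 0.22 for DSF and 3.24 ± 0.22 for DSF+NSM, the last corresponding to a mean 9.58 times that of DMSO.

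The sum of the CDKN1A single-drug differences was 3.01, so the DSF+NSM difference exceeded the sum by 0.24 ± 0.31, less than its standard error, and at equal library sums this value was -0.18. Thus the CDKN1A means of the 4 groups stood close to multiplying ratios, 3.93 for DSF, 2.15 for NSM and 9.58 for both. The DSF+NSM level stood 1.31 ± 0.22 above DSF on the log2 scale, or 0.62 at equal library sums. The antisense transcript DINOL overlaps an exon of CDKN1A over 146 bases, and whether the counting used strand is not stated. The CDKN1A window at chr6:36678464-36678713, plus strand, held 1 hypoxia core, 195 to 191 bases before the start.
CDKN1A: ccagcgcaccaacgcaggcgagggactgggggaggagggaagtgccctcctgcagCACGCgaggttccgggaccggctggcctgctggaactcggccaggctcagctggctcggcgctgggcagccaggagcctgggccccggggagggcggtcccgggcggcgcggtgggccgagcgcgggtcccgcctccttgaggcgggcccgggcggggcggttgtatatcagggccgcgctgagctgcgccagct

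MDM2, a ubiquitin ligase that marks other proteins for destruction, did not share the pattern. It lies on chromosome 12 from 68808177 to 68845544, plus strand. The DMSO libraries held 810.2, 837 and 808 normalized counts and the DSF libraries 569, 548 and 579, every DSF library being below every DMSO library. The NSM libraries held 641, 761 and 1913, and the DSF+NSM libraries 541, 557 and 876. Replicate 3 was the highest in both groups that received NSM, and in NSM it was 2.73 times the mean of the other 2 libraries.

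The log2 difference of MDM2 from DMSO was -0.53 ± 0.32 with DSF, 0.26 ± 0.32 with NSM and -0.35 ± 0.32 with both drugs. The standard error is shared by the 4 groups and so includes the spread of the NSM libraries. The NSM value was -0.23 without NSM replicate 3, 0.56 without NSM replicate 1 and -0.01 at equal library sums. The DSF+NSM value was -0.57 without DSF+NSM replicate 3 and -1.13 at equal library sums. The direction of MDM2 in NSM thus rests on 1 library, while the DSF value kept its sign with any 1 library left out. MDM2 overlaps exons of CPM on the other strand, among others, over up to 785 bases.

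TP53INP1, a stress-induced protein that promotes autophagy, was close to the limit of detection. It was listed at 2.65, 3.03 and 2.94 in DMSO, 15.1, 9.96 and 2.18 in DSF, 14.7, 11.6 and 12.8 in NSM, and 8.76, 13.9 and 35.6 in DSF+NSM. Neighbouring groups overlapped throughout, and DSF replicate 3 stood below all DMSO libraries while DSF+NSM replicate 3 was the highest of the 12. The log2 differences from DMSO were 1.09 ± 0.60, 1.85 ± 0.60 and 2.17 ± 0.60, and the first was 1.78 without DSF replicate 3 and 0.61 without DSF replicate 1. At this depth an order of the 3 treatments was not detectable.

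GADD45B showed the most uneven pattern of the 10 genes, with a level in the combination far above either drug. GADD45 proteins are small acidic proteins that bind the kinase MTK1 upstream of p38 and JNK and take part in DNA repair and cell cycle checkpoints. GADD45B lies on chromosome 19 from 2476122 to 2478259, plus strand, and held 656, 729 and 656 normalized counts in DMSO, 1833, 2318 and 1399 in DSF, and 603, 588 and 400.2 in NSM. In DSF+NSM it reached 39120.4, 44484 and 19459.8. The NSM libraries were all below DMSO and the DSF libraries all above it, and none of the 4 groups overlapped.

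The mean of GADD45B in DSF+NSM was 50.5 times that in DMSO, 18.6 times that in DSF and 64.8 times that in NSM. Its log2 difference from DMSO was 1.41 ± 0.28 with DSF, -0.38 ± 0.28 with NSM and 5.57 ± 0.28 with both drugs, which exceeded the sum of the single-drug values by 4.54 ± 0.40. NSM alone was thus associated with a lower level and NSM added to DSF with a level 4.16 ± 0.28 above DSF. At equal library sums GADD45B in DSF+NSM stood 4.79 above DMSO, 3.47 above DSF and 4.12 above the sum. The lowest DSF+NSM library, replicate 3, still stood above the highest library of any other group, and GADD45B took 0.0859% to 0.177% of all normalized counts in that group against 0.00461% to 0.00507% in DMSO. The window at chr19:2475877-2476126, plus strand, held 4 matches to the hypoxia core, a palindromic pair that overlaps by 4 bases and begins 168 and 167 bases before the start, and single ones beginning 151 and 50 bases before it.
GADD45B: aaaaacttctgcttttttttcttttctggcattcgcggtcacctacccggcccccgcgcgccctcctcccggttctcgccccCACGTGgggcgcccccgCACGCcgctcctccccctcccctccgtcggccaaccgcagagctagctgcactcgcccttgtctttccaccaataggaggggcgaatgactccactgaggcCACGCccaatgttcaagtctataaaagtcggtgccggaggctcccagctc

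Its paralog GADD45A was high in both groups that received NSM. GADD45A, the family member best known as a DNA damage and ATF4 target, lies on chromosome 1 from 67685201 to 67688334, plus strand. It held 673, 728 and 654 normalized counts in DMSO and 887, 1035 and 879 in DSF. The NSM libraries held 1728, 1675 and 3031 and the DSF+NSM libraries 2827, 2808 and 2347, so the last 2 groups overlapped. The log2 difference from DMSO was 0.44 ± 0.20 with DSF, 1.59 ± 0.20 with NSM and 1.95 ± 0.20 with both drugs, and DSF+NSM differed from the sum by -0.08 ± 0.28. NSM replicate 3 was 1.78 times the mean of the other NSM libraries, and without it the difference between DSF+NSM and NSM went from 0.36 ± 0.20 to 0.64 ± 0.11. At equal library sums that difference was -0.15, so its direction is not fixed. The DSF+NSM difference from DMSO was 1.17 at equal library sums.

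**Figure D1:**
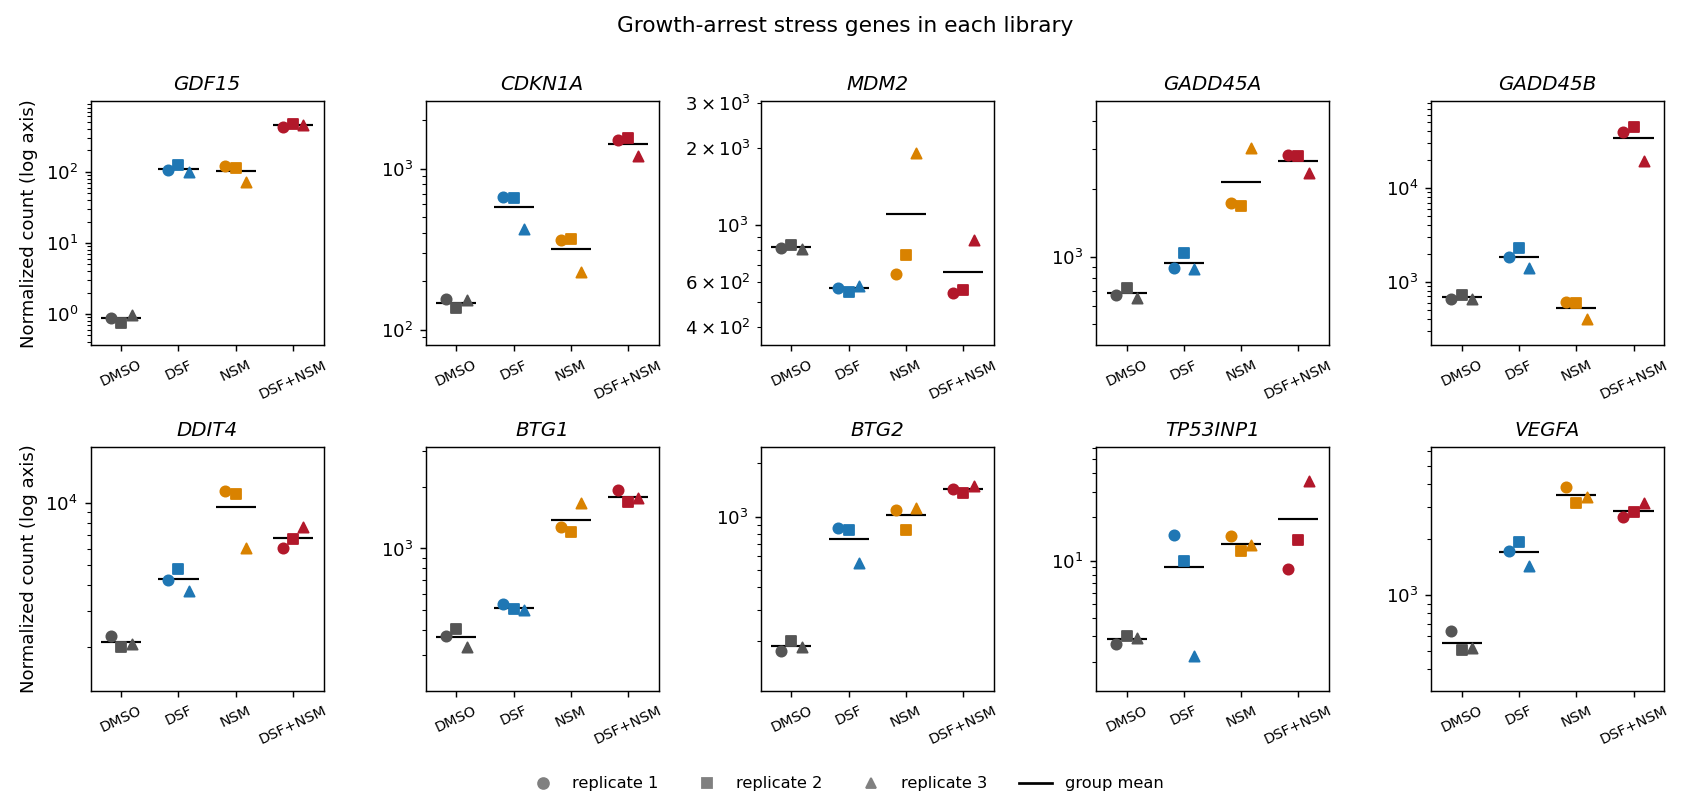
Normalized counts of the 10 genes (log axis, a separate range for each gene) in the 12 libraries, by group, with the marker giving the replicate number and the line the group mean. GADD45B stands apart in DSF+NSM at 19459.8 to 44484, GDF15 sits near 1 in DMSO, and NSM replicate 3 is the highest MDM2 library at 1913.

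DDIT4, BTG1 and BTG2 restrain growth and translation rather than the cyclin-dependent kinases themselves. DDIT4 (REDD1) restrains mTORC1 under hypoxia, energy stress and ATF4 activity, and its gene lies on chromosome 10 from 72273919 to 72276036, plus strand. It held 2268, 2016 and 2070.4 normalized counts in DMSO, 4233, 4804 and 3729 in DSF, and 11415, 10955 and 6065 in NSM. In DSF+NSM it held 6049.8, 6669 and 7588, above all DSF libraries and overlapping with NSM through NSM replicate 3. The log2 difference from DMSO was 1.00 ± 0.21 with DSF, 2.11 ± 0.21 with NSM and 1.67 ± 0.21 with both drugs, whose difference from the sum of 3.11 was -1.44 ± 0.29.

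NSM alone thus gave the highest mean level of DDIT4, 4.47 times that of DMSO against 3.20 times in DSF+NSM. The difference between DSF+NSM and NSM was -0.44 ± 0.21. It was -0.73 ± 0.12 without NSM replicate 3, -0.27 without NSM replicate 1 and -0.95 ± 0.22 at equal library sums. DSF+NSM stood 0.67 above DSF, or -0.02 at equal library sums, where its direction turned. The DDIT4 window at chr10:72273674-72273923, plus strand, held 3 hypoxia cores, beginning 219, 125 and 53 bases before the start.
DDIT4: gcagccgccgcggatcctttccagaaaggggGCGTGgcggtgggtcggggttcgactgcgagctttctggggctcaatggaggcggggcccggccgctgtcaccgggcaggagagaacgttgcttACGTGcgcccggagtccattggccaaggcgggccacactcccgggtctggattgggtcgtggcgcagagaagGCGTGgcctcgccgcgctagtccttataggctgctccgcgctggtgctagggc

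BTG1 and BTG2 encode related antiproliferative proteins that bring the CCR4-NOT deadenylase to messenger RNA. BTG1 (chromosome 12, 92140278 to 92145846, minus strand) held 372, 403 and 328 normalized counts in DMSO, 534, 505 and 497 in DSF, 1276, 1202 and 1667 in NSM, and 1929, 1682 and 1763 in DSF+NSM. None of the 4 groups overlapped, although NSM replicate 3 and the lowest DSF+NSM library were close. The log2 difference of BTG1 from DMSO was 0.48 ± 0.14, 1.90 ± 0.14 and 2.28 ± 0.14 for DSF, NSM and DSF+NSM, and the combination differed from the sum by -0.09 ± 0.20. Its DSF+NSM level stood 0.39 ± 0.14 above NSM, or -0.13 at equal library sums. LINC01619 on the same strand overlaps BTG1 exons over up to 503 bases, so some reads may be shared.

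BTG2 (chromosome 1, 203305491 to 203309602, plus strand) held 175, 199 and 185 normalized counts in DMSO and 862, 842 and 547 in DSF. The NSM libraries held 1095, 846 and 1120.0 and the DSF+NSM libraries 1437, 1365 and 1483. DSF and NSM overlapped, and DSF+NSM lay above both. The log2 difference from DMSO was 1.97 ± 0.18 with DSF, 2.44 ± 0.18 with NSM and 2.93 ± 0.18 with both drugs, whose difference from the sum was -1.48 ± 0.26. The step from NSM to DSF+NSM was 0.50 ± 0.18, or -0.02 at equal library sums, and the step from DSF was 0.96 ± 0.18, or 0.27 at equal library sums. BTG1 and BTG2 thus differed in DSF, where the mean of BTG2 was 4.02 times and that of BTG1 1.39 times that of DMSO.

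VEGFA, the secreted ligand that drives blood vessel growth through its receptor KDR, was higher in all treatments. The gene lies on chromosome 6 from 43770184 to 43786487, plus strand. It held 639.8, 505 and 519 normalized counts in DMSO, 1738, 1929 and 1444 in DSF, 3825, 3144 and 3396 in NSM, and 2628, 2815 and 3155 in DSF+NSM. NSM and DSF+NSM overlapped narrowly and lay above DSF, which lay above DMSO. The log2 difference from DMSO was 1.62 ± 0.15 with DSF, 2.64 ± 0.15 with NSM and 2.37 ± 0.15 with both drugs, whose difference from the sum was -1.88 ± 0.21. The order of VEGFA groups was that of DDIT4, and DSF+NSM differed from NSM by -0.27 ± 0.15, or by -0.78 ± 0.16 at equal library sums. The step from DSF to DSF+NSM was 0.76 ± 0.15, or 0.07 at equal library sums.

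**Figure D2:**
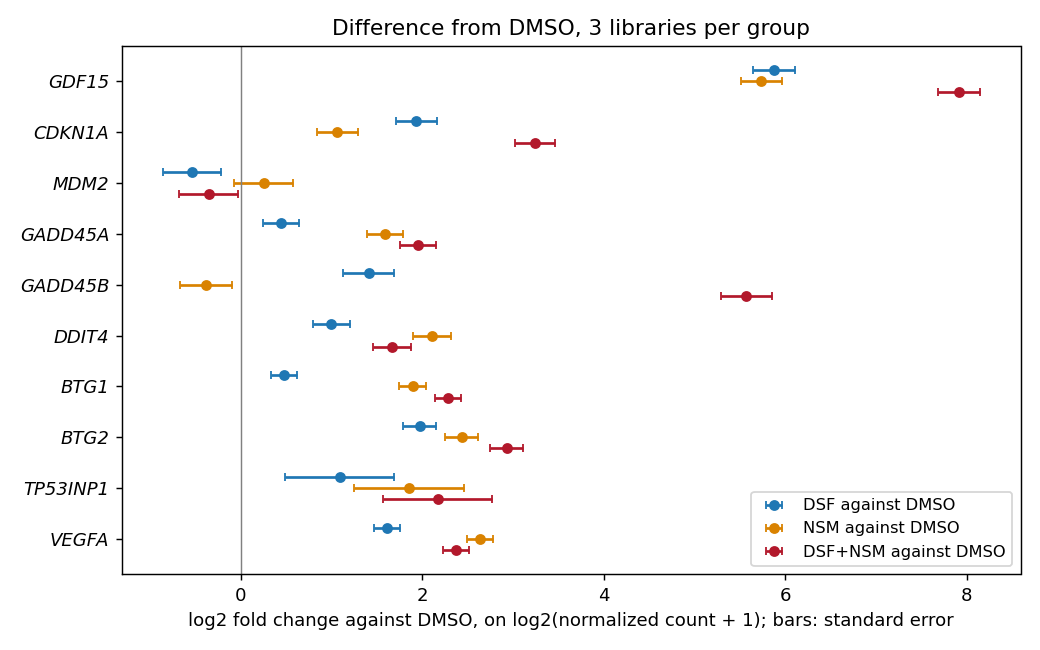
Log2 difference of each treatment from DMSO on the log2(normalized count + 1) scale, with bars giving the standard error from the fit over all 12 libraries. DSF+NSM is the highest point for GDF15 (7.92), GADD45B (5.57), CDKN1A (3.24), BTG2 (2.93), BTG1 (2.28), TP53INP1 (2.17) and GADD45A (1.95), NSM is the highest for VEGFA (2.64) and DDIT4 (2.11), and MDM2 lies within 0.53 of 0 in each.

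**Figure D3:**
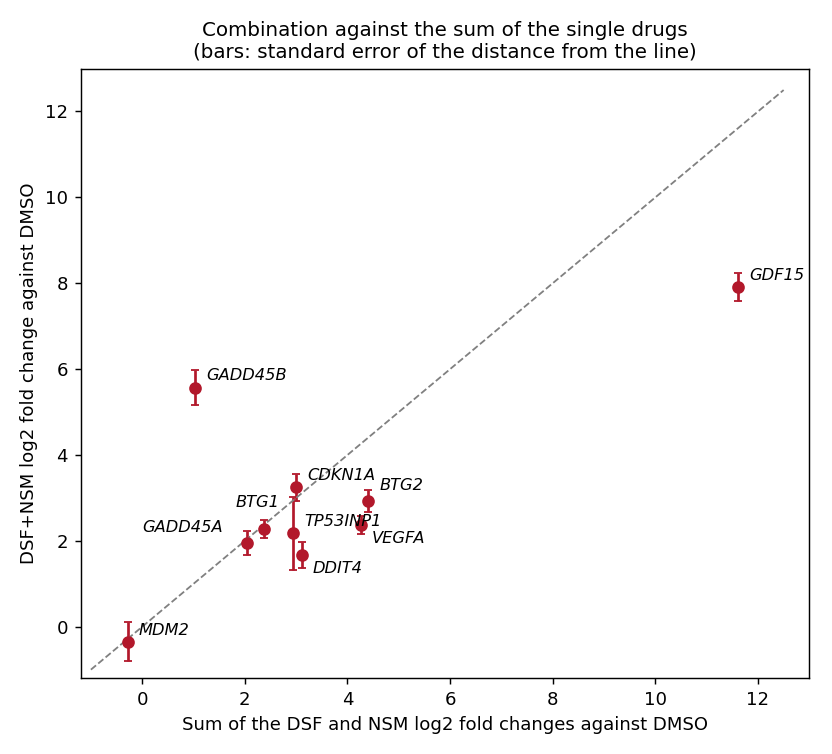
DSF+NSM log2 difference from DMSO of each gene against the sum of the DSF and NSM differences, with the dashed line marking equality and bars giving the standard error of the distance from it. GADD45B lies 4.54 above the line, while GDF15 (-3.70), VEGFA (-1.88), BTG2 (-1.48) and DDIT4 (-1.44) lie below it.

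Set against the sum of both drugs, the 10 genes fell into 3 kinds. That sum adds log2 differences, so it stands for multiplied ratios and not for added counts. GADD45B lay above the sum. CDKN1A, GADD45A, BTG1, MDM2 and TP53INP1 lay within 1 standard error of it, from 0.24 for CDKN1A to -0.77 ± 0.85 for TP53INP1. Without NSM replicate 3, however, MDM2 stood at 0.41 ± 0.22 and GADD45A at 0.20 ± 0.15, and at equal library sums BTG1, GADD45A and MDM2 stood at -0.51, -0.50 and -0.49. TP53INP1 stood at -1.46 ± 0.71 without DSF replicate 3 and at -1.19 ± 0.88 at equal library sums. CDKN1A stood at 0.35 ± 0.33 without DSF+NSM replicate 3. GDF15, VEGFA, BTG2 and DDIT4 lay below it, at differences of -3.70 ± 0.32, -1.88, -1.48 and -1.44, and the GDF15 value was -1.37 with 10 added to each count. The value of GDF15 was measured from a DMSO level of 1 read per library.

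Per kilobase of the MANE Select transcript, which allows levels of different genes to be compared, the order of the genes changed most for MDM2, which stood above BTG1, CDKN1A, BTG2 and GDF15 in DMSO (109 ± 2.15 per kilobase, SD) and below all of these in DSF+NSM (87.9 ± 25.2), and GADD45B moved to the top. In DMSO the highest levels were those of DDIT4 at 1215 ± 76.2 normalized counts per kilobase (SD), GADD45A at 507 ± 28.6 and GADD45B at 496 ± 30.9, and the last 2 overlapped. In DSF+NSM GADD45B came first at 25058 ± 9610, followed by DDIT4 at 3881 ± 444 and GADD45A at 1968 ± 201. CDKN1A went from 69.6 ± 4.78 to 667 ± 90.9 per kilobase and overtook BTG1, while GDF15 reached 376 ± 22.3 and stood beside BTG1 at 387 ± 27.3, their ranges overlapping. TP53INP1 was the lowest in each group, at 3.46 ± 2.54 per kilobase in DSF+NSM.

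Read against all 13502 genes tested, the counts of the 10 genes give no independent result, because the same values chose them. In the limma fit (Benjamini-Hochberg adjusted p under 0.05) 7 of the 10 were called higher in DSF than in DMSO and none lower, where 11.9% of all genes were called higher and 5.95% lower. In NSM 8 were called higher, beside 25.4% higher and 23.7% lower of all genes, and in DSF+NSM 9 were called higher, beside 28.3% and 24.5%. MDM2 was called lower than DMSO in DSF+NSM at equal library sums, with or without rRNA, with library weights and without NSM replicate 3. In DSF it was called lower with the compared groups alone, with library weights and without NSM replicate 3. DSF+NSM against DSF called 8 of the 10 higher (21.7% of all genes higher, 21.4% lower), or 5 at equal library sums. DSF+NSM against NSM called 4 higher (20.3% higher, 18.3% lower), without NSM replicate 3 it called 6 higher and DDIT4 lower, and at equal library sums 3 higher and 3 lower (MDM2, DDIT4 and VEGFA). For the difference between DSF+NSM and the sum of both drugs, 1 gene was called above it and 4 below (12.1% and 14% of all genes). Nothing is read from these shares. The median log2 difference from DMSO of the 10 genes was 1.25, 1.88 and 2.33 for DSF, NSM and DSF+NSM, and that of all genes 0.05, 0.01 and 0.03.

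The background itself moved with single libraries and with scaling. All calls for DSF against DMSO numbered 2405, and 5551 without NSM replicate 3, 1160, 1058 and 1393 without DMSO replicates 1, 2 and 3, and 1166 and 911 without DSF replicates 1 and 2. All calls for the difference from the sum numbered 3527, and 6175 without NSM replicate 3. The share of calls that were higher was 66.6% with DSF, 51.7% with NSM and 53.6% with both drugs against DMSO, and 49.3%, 32.9% and 16.7% at equal library sums. It was 50.3% against DSF, 52.5% against NSM and 46.3% for the difference from the sum, and 11.8%, 17.8% and 19.1% at equal library sums.

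Paralogs and partners of the 10 genes, which are not among the genes chosen, were tested. Their list and those below were written with earlier results of these data known, so the calls are not independent evidence. Of 17 paralogs and partners, 11 passed the filter on low values, 2 rose and 1 fell in DSF, 4 rose and 1 fell in NSM, and 6 rose in DSF+NSM. Of all genes tested, 11.9% rose and 5.95% fell in DSF, 25.4% and 23.7% in NSM, and 28.3% and 24.5% in DSF+NSM, so the counts in DSF lay near those shares. The third GADD45 gene, GADD45G, was also far higher in the combination than in any other group. It held 38.9, 57.4 and 47.1 normalized counts in DMSO, 264, 293 and 176 in DSF, 96.2, 69.8 and 21.7 in NSM, and 6141, 6802 and 1805 in DSF+NSM. It rose by 6.45 ± 0.54 on the log2 scale in DSF+NSM (limma, adjusted p = 1.3e-06) and by 2.31 ± 0.54 in DSF (adjusted p = 0.013, not called without DMSO replicate 1 or DSF replicates 1 or 2), and in NSM its difference was 0.16 ± 0.54. As for GADD45B, the combination exceeded the sum, here by 3.98 ± 0.77 (limma, adjusted p = 0.0026).

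Among the relatives of BTG1 and BTG2, TOB1, also a partner of CCR4-NOT, rose by 1.06 ± 0.22 in NSM (limma, adjusted p = 0.0016) and by 1.28 ± 0.22 in DSF+NSM (adjusted p = 0.00035, not called at equal library sums). TOB2 rose by 0.56 ± 0.11 in DSF+NSM (adjusted p = 0.0012), but was at -0.22 at equal library sums, and BTG3 rose by 0.51 ± 0.19 in NSM (adjusted p = 0.044), a call lost under most alternatives. MDM4, the paralog that pairs with MDM2, rose by 1.64 ± 0.18 in NSM (limma, adjusted p = 2e-05) and by 0.81 ± 0.18 in DSF+NSM (adjusted p = 0.0026), the latter being 0.03 at equal library sums. TP53INP2, the paralog of TP53INP1 that acts in autophagy, rose by 2.35 ± 0.22 in NSM (adjusted p = 5.3e-06), fell by 0.99 in DSF (adjusted p = 0.01, not called without DSF replicate 1) and stood at 0.01 in DSF+NSM.

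Of the receptors and sister ligands of VEGFA and GDF15, the VEGF receptor FLT1 rose by 1.46 ± 0.31 in DSF+NSM (limma, adjusted p = 0.0018, not called at equal library sums) and fell by 0.99 in NSM (adjusted p = 0.02, not called when NSM and DMSO were fitted alone). The co-receptor NRP2 rose by 1.72 ± 0.31 in DSF (adjusted p = 0.0029) and the ligand PGF by 2.20 ± 0.69 in DSF+NSM (adjusted p = 0.018, not called at equal library sums). PGF was near the floor, at 10.3, 7.78 and 2.85 normalized counts in DMSO and 28.9, 45.0 and 25.8 in DSF+NSM. It passed the filter of 10 mainly through the DSF and DSF+NSM libraries, so its adjusted p carries little weight. VEGFB and RET, the signalling partner of GFRAL, passed the test in no treatment against DMSO, with RET at 0.11, 0.92 and -0.74. DDIT4L, VEGFC, KDR and NRP1 were too low to be tested, and BTG4 and GFRAL were not analysed here. Leaving out 1 library moved the count of this list in DSF from 3 to 5 (NSM replicate 3) or 1 (DSF replicate 1), and that in NSM from 5 to 3 (DMSO replicate 1 or 3). At equal library sums 1 of the list was higher and 2 lower in DSF+NSM.

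The 4 lists of genes around these 10 differed in how many members moved together, the list of paralogs and partners being the first. The integrated stress response had the most genes moving one way, but it had been examined in these libraries before, so its counts are not independent evidence of its direction. Of its 14 tested genes other than the 10, 12 rose under DSF, 14 under NSM and 13 under DSF+NSM, where STC2 fell by 0.74 (limma, adjusted p = 0.0014), and the median log2 differences from DMSO were 1.62, 2.26 and 2.20 (all genes 0.05, 0.01 and 0.03). Of all genes 11.9%, 25.4% and 28.3% rose in these treatments. The counts include NUPR1, which held 2.65, 6.05 and 0.98 normalized counts in DMSO. It passed the filter of 10 only through the treated libraries, so its calls carry little weight. At equal library sums 10 of the list rose and 2 fell under DSF+NSM, with a median of 1.42. PPP1R15A, the GADD34 subunit that dephosphorylates eIF2α, rose by 3.14, 4.58 and 6.10 in DSF, NSM and DSF+NSM (each ± 0.17, limma, adjusted p = 4.2e-07, 2.1e-08 and 1.6e-10). DDIT3, which encodes CHOP, rose by 3.14, 4.85 and 4.99 (± 0.20). ATF3 rose by 2.77, 2.85 and 5.85 (± 0.23), as did the mTORC1 inhibitor SESN2 by 2.06, 2.91 and 4.66 (± 0.24), and adjusted p values of these 3 genes ran from 0.00012 to 2.8e-09.

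The hypoxia list and the G1 list went both ways. Of 11 hypoxia genes tested, 2 rose and 1 fell in DSF, 2 rose and 3 fell in NSM, and 5 rose and 2 fell in DSF+NSM, with medians of -0.12, -0.34 and 0.15. Of all genes 11.9% rose and 5.95% fell in DSF, 25.4% and 23.7% in NSM, and 28.3% and 24.5% in DSF+NSM, so the counts in NSM lay near those shares. At equal library sums 3 hypoxia genes rose and 5 fell in DSF+NSM. The peptide gene ADM had the same order of groups as GADD45B, as it fell by 2.44 (SE 0.30) in NSM (limma, adjusted p = 4.2e-05) and rose by 1.25 in DSF (adjusted p = 0.015, not called without DMSO replicate 2 or DSF replicates 1 or 2) and by 3.58 in DSF+NSM (adjusted p = 1.3e-06). NDRG1 rose by 2.04, 1.80 and 2.35 (± 0.19), the collagen hydroxylase P4HA1 by 1.66 ± 0.21 in DSF+NSM, and the glycolytic gene LDHA fell by 1.26 and 1.52 in NSM and DSF+NSM (SE 0.14), all with limma adjusted p values from 3.2e-05 to 1e-06. The hypoxia count in DSF was 6 without NSM replicate 3 and 1 without DMSO replicate 2, DSF replicate 1 or DSF replicate 2.

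Of 14 G1 regulators tested, 2 rose in DSF, 3 rose and 6 fell in NSM, and 2 rose and 6 fell in DSF+NSM, with medians of -0.10, -0.18 and -0.36. The shares of all genes were those given for the hypoxia list, and the genes that rose in DSF (2 of 14) and in NSM (3 of 14) lay near them. Inhibitors of cyclin-dependent kinases, the class of CDKN1A, went both ways in DSF+NSM: CDKN1C and CDKN2D rose, while CDKN1B, which encodes p27, fell by 0.87 (SE 0.28, limma, adjusted p = 0.018) and CDKN2C fell by 1.16 (SE 0.13, adjusted p = 1.6e-05). CDKN1C, which encodes p57, of the same Cip/Kip family as p21, rose by 1.97, 2.33 and 5.96 (± 0.35) in DSF, NSM and DSF+NSM (limma, adjusted p = 0.003, 0.00019 and 8e-08). CDKN2D rose by 1.78, 3.39 and 2.94 (± 0.23, adjusted p = 0.00034, 6.21e-07 and 8.15e-07). The cyclins CCNE2 and CCND2 fell by 1.67 ± 0.23 and 1.64 ± 0.16 in DSF+NSM (limma, adjusted p = 7.4e-05 and 4.2e-06). Without NSM replicate 3 the DSF count was 7, with 4 higher and 3 lower, and at equal library sums 2 rose and 11 fell in DSF+NSM.

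**Figure D4:**
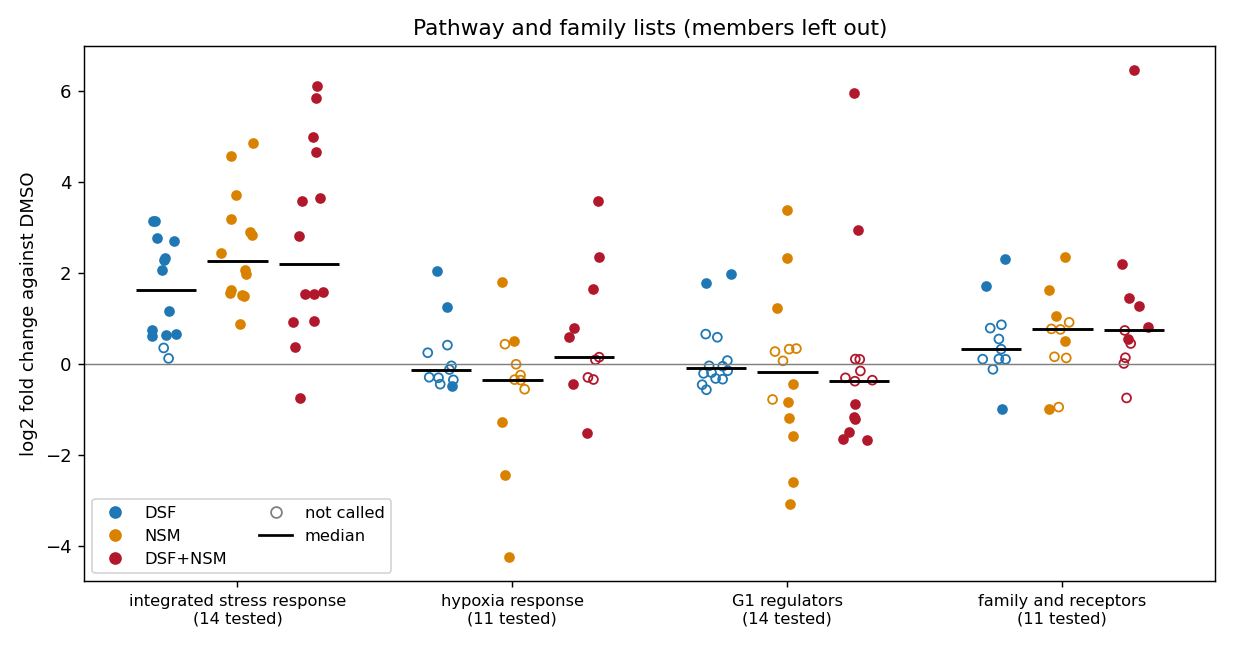
Log2 difference from DMSO of the tested genes in 4 lists, with the 10 genes left out, by treatment, filled where limma called the gene (adjusted p under 0.05), with a line at the median. The integrated stress response is the list whose medians (1.62, 2.26 and 2.20) stand furthest from 0.

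By the closeness of their 3 log2 differences from DMSO (root mean square difference, among 10795 genes outside the set with a mean of at least 50 normalized counts), the genes most like CDKN1A were MLLT11 (0.142), FTL (0.205), LOC102723726 (0.222) and NOL3 (0.281). FTL, the light chain of the iron store ferritin, went from a mean of 48495 in DMSO to 189147 under DSF, 85687 under NSM and 427843 under DSF+NSM. No gene was as close to GDF15, for which RNU1-28P (1.19), HES1 (1.55), CCL3 (1.62) and RAD51L3-RFFL (1.69) came next. The libraries of RNU1-28P and RAD51L3-RFFL were uneven within groups, as their log2 differences depart from their means. RAD51L3-RFFL had means of 37.8 in DMSO and 313 in NSM but a log2 difference of 6.01. RNU1-28P had means of 1.63 in DMSO and 891 in DSF+NSM but a log2 difference of 6.02. This likeness rests on 4 group means of the same 12 libraries, and all 3 differences share the DMSO libraries.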

How the data were processed

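RNA of 12 SHI-1 libraries (4 groups of 3) was analysed from 1 table per library. Per the labels, TruSeq libraries were made from total RNA, and the submitters' processing notes name bcl2fastq 2.19, Trimmomatic, Bowtie2, Picard, featureCounts and DESeq2 with the build hg38, while the methods name STAR and Salmon. Which of these made the tables, and whether strand was used, is not given in the sources used here. The labels name RPMI medium and the methods another one. The deposited signal is a normalized count per gene, scaled by the authors over 24 libraries, of which 12 were used. In each library only 32.2% to 32.9% of the values above 0 came out whole when divided by the smallest step (tolerance 0.01), so reads were not recovered, no count model was run, and the depth of 10200000 to 19000000 reads per library is an estimate.

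Values were analysed as log2(value + 1), in the 13502 genes that reached 10 in 3 or more libraries, with limma 3.58.1 in R 4.3.3 (trend, robust, 1 fit over 4 group means, Benjamini-Hochberg adjustment, threshold 0.05). Differences of the 10 genes understate changes at low values. The fit was also run on data simulated from the DMSO means, with changes placed in DSF+NSM only. That simulation held no shift of library sums and no outlying library, so it does not bear on either. The fit did not pair libraries by replicate number. Deviations of same-numbered libraries from their group means correlated at -0.06 to 0.28, over 0.1 in 2 of 18 pairs. These low values do not settle whether same-numbered libraries shared an experiment, and the standard errors take no account of it. Replicate 3 was the lowest library of CDKN1A and GADD45B in DSF, NSM and DSF+NSM, and the highest of MDM2 there. The members and lists were chosen with earlier results of these data known, and the lists were written from general knowledge. Named were the 10 genes, every gene of the list of paralogs and partners, and from each other list the 4 called genes with the largest absolute log2 difference in DSF+NSM, groups that do not overlap and a mean of at least 50 in a group; STC2, CDKN1B, CDKN2C and markers were named after their values were seen. The 4 genes most like GDF15 and CDKN1A were named by their log2 differences. A planned list and the values of some items are not reported here. Promoter windows came from RefSeq, positions and transcript lengths from GENCODE 44. Alternatives were other scalings, pseudocounts, filters, library weights, the compared groups alone, the replicate block and each library left out. Python 3.11.15, pandas 2.3.3 and matplotlib 3.10.9 were used.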

Additional observations from a re-analysis of the deposited data

Results flagged for a closer look

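For 3 of the 10 genes every library lay on one side of the comparison group's mean with a drug alone, and on the other side when that drug was added to the other one. Since the genes were chosen on these values, the difference was not tested. GADD45B lay below the DMSO mean in every NSM library and above the DSF mean in every DSF+NSM library, a difference of 4.54 on the log2 scale. DDIT4 and VEGFA lay above the DMSO mean in every DSF library and below the NSM mean in every DSF+NSM library, at -1.44 and -1.88 from the sum. Their DSF+NSM and NSM libraries overlapped, and DSF+NSM differed from NSM by only -0.44 ± 0.21 and -0.27 ± 0.15.

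For the genes named from the lists by rule, the DSF+NSM difference from DMSO was tested against the sum of both single drugs by an interaction term (limma, adjusted p under 0.05). Of all genes tested, 12.1% were called above the sum and 14% below it. It was above the sum, on the log2 scale, for ADM (4.77), GADD45G (3.98), P4HA1 (2.34), CDKN1C (1.67), FLT1 (1.66) and CCNE2 (1.07). It was below the sum for DDIT3 (-3.00), CDKN2D (-2.23), NRP2 (-1.75), PPP1R15A (-1.62), NDRG1 (-1.49), TP53INP2 (-1.34), MDM4 (-0.94) and CCND2 (-0.75). The calls of CDKN1C and CCNE2 were lost at equal library sums, and those of CDKN1C, CCNE2, CCND2 and MDM4 also without single libraries. Other genes of the lists were called too. EGLN3 (4.74, with a mean of 0.82 in NSM), CCNE1 (2.16) and ANKRD37 (1.39) were above the sum. TRIB3 (-2.36), NUPR1 (-2.28, with a mean of 3.23 in DMSO), STC2 (-2.26), VLDLR (-2.21), CDKN1B (-2.18), CHAC1 (-1.96), ASNS (-1.78), CDKN2C (-1.39), ATF5 (-1.27), EGLN1 (-0.84), ATF4 (-0.70) and CEBPB (-0.70) were below it.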

How the results depend on the processing

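Of the counts of calls recomputed under the alternatives, 487 stayed within 1.5 times the value reported and 39 did not; of the values of the 10 genes, 1219 moved by less than the spread, 77 by more and 2 reversed. The calls of all genes for DSF against DMSO were 7289 with the compared groups alone, 8171 with library weights and 911 to 5551 with 1 library left out. Library weights gave 11107 calls for NSM, 9120 for DSF+NSM against DSF, 9782 against NSM (2473 with the compared groups alone) and 8933 for the difference from the sum, which ran from 2569 to 6175 with 1 library left out. Of the 10 genes, DSF+NSM against DSF called 5 at equal sums and 5 at equal sums without rRNA, and DSF+NSM against NSM called 8 with library weights and 3 to 7 with 1 library left out. In DSF, the compared groups alone called 8 hypoxia genes, 9 G1 regulators and 5 paralogs and partners, library weights called 8, 9 and 5, and leaving out 1 library gave 1 to 6, 2 to 7 and 1 to 5. In NSM, library weights called 10 hypoxia genes and 10 paralogs and partners (3 to 7 with 1 library left out), and a minimum of 10 in every library left 3 hypoxia genes called. In DSF+NSM, 13 G1 regulators and 3 paralogs and partners were called at equal sums. At equal sums DDIT4 in DSF+NSM against DSF (-0.016), BTG2 against NSM (-0.019) and TOB2 against DMSO (-0.22, or -0.10 without rRNA) reversed. The cause was not tested. By deviations from the group mean, 4 of 12 libraries correlated best with those of their own replicate number, which does not settle whether numbers pair the libraries. With the number as a block, G1 regulators called in DSF went from 2 to 4, and no other count moved by over 1.5 times. The depth limits GDF15 in DMSO and TP53INP1.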
